A study of Rattus norvegicus with 8 samples.

Results

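The genes described here encode the heat shock proteins and the chaperones of the endoplasmic reticulum, the machinery that folds new proteins and refolds damaged ones. They were taken by name from the platform's gene annotation: symbols beginning with Hspa, Hspb, Hspd, Hspe, Hsph, Hsp90, Dnaja, Dnajb, Dnajc or Pdia, together with Calr, Canx, Xbp1, Atf4, Atf6, Ddit3, Herpud1 and Hyou1. The binding partners Hspbp1 and Hspbap1 were left out. This gave 63 genes of the 10411 named on the array, on 83 of its 15866 probe sets, and each gene was read at its brightest probe set. By the place where the protein works, 35 belonged to the cytosol or nucleus, 16 to the lumen of the endoplasmic reticulum (ER), 2 to its membrane and 6 to the mitochondrion, and 4 were stress signalling genes. The lumen group includes the membrane-anchored Canx and Dnajc1, and the membrane group holds J proteins only. Atf6 had no probe set named for it, and Hspa8, Hsp90aa1 and Hspa1b lay only on probe sets that carry several gene symbols. These 4 genes were not analysed here.

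RNA was taken from the adrenals of 7-day-old rats. The hypoxic group had lived with its dams in 12% O2 from birth, and the normoxic group had lived in room air with dams fed freely. The sources used here give no strain, sex or genotype. The capsule had been removed, 24 glands made up each pool, and each of the 4 hypoxic and 4 normoxic pools was read on an array of its own. The labels give pools as separate samples but not how litters were spread over them, so p-values measure the spread between these pools.

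Chaperones bind unfolded stretches of other proteins and release them in cycles driven by ATP. Hsp70 proteins do this with J proteins, which deliver clients and start ATP hydrolysis, and with exchange factors, which reset the cycle. In the cytosol, heat shock factor raises these genes through the heat shock element. In the ER, unfolded proteins are sensed by a signalling system, the unfolded protein response, which acts through Xbp1, Atf6 and Atf4 and raises ER chaperones through the ER stress response element. The adrenal gland relies on both organelles: chromaffin cells load peptide hormones through the ER, and steroid-forming enzymes sit in the ER membrane and in mitochondria.

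Array medians ran from 228.2 to 248.7 arbitrary units, and bacterial control probe sets had a 95th percentile of 46.7, which serves as background. Cortex markers (8 measured, Star and Cyp11a1 among them) and chromaffin markers (9 measured, Th and Dbh among them) were well above it in all pools. The summed chromaffin level was 34341.2 to 45901.4 in normoxic and 40536.7 to 55820.7 in hypoxic pools, with 9 of 9 genes higher in hypoxic pools and a median log2 difference of 0.34. The cortex sum was 89738.8 to 122991.6 and 89169.6 to 131670.7, with 6 of 8 higher and a median of 0.02. Fat markers summed to 3992.7 to 12503.2 and 2956.3 to 8831.1, with 7 of 7 lower, and 3 of 3 tested erythroid genes were higher and 5 of 7 leukocyte genes lower. Of all these markers 1 passed limma, the chromaffin transporter gene Slc18a2 (0.98, adjusted p = 0.0318). That call was lost with the Gapdh covariate, without the brightness filter, without the variance trend, and when any one of normoxic pools 1 to 3 or of hypoxic pools 2 and 3 was left out, where 0 probe sets passed. Gapdh signal at the 5' end over that at the 3' end, which drops as RNA degrades, was 0.665 ± 0.0646 and 0.609 ± 0.0423 (SD, n = 4 pools each, exact permutation p = 0.2, two-sided). The same ratio for actin was 0.607 ± 0.143 in normoxic and 0.495 ± 0.191 in hypoxic pools (exact permutation p = 0.4, two-sided). It was lowest in hypoxic pool 1, at 0.249, and no fit took it as a covariate.

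The comparison of hypoxic with normoxic pools gave small differences in chaperone genes. Within this gene set they were centred above 0 in the ER lumen and near 0 in the other compartments. Outside it, 36 tested genes of ER folding and quality control had a median log2 difference of 0.03, and 5 mitochondrial genes had 0.19. BiP (Hspa5), GRP94 (Hsp90b1) and calreticulin (Calr) were about 1.2-fold higher in hypoxic glands, and only the first 2 of these had no overlap between groups. Cytosolic heat shock genes lay around 0. No chaperone gene passed limma at an adjusted p of 0.05: the count was 0 of 51 that were bright enough to test, where 0.18% of all tested probe sets passed (0.117% higher and 0.063% lower in hypoxic pools). The smallest adjusted p among them was 0.419.

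At an unadjusted p under 0.05 in limma there were 4 of 51 genes (7.84%), near the 8.64% of all 11106 tested probe sets (4.16% higher, 4.48% lower). They were Hsp90b1, Hspa5 and Calr, which were higher, and the mitochondrial J protein gene Dnajc15, which was lower. The count was 8 without hypoxic pool 1, 2 without normoxic pool 2 and 1 without normoxic pool 4. In 2 of 51 genes (3.92%) all hypoxic pools lay above all normoxic pools, against 2.76% of all tested probe sets and 5.39% in both directions together. None of the 51 lay wholly below, where the share over all probe sets was 2.64%. The median log2 difference was 0.03 over the 51 genes and -0.02 over all tested probe sets, and the extremes were 0.40 for Hspa12a and -0.29 for Dnajc24.

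**Figure D1:**
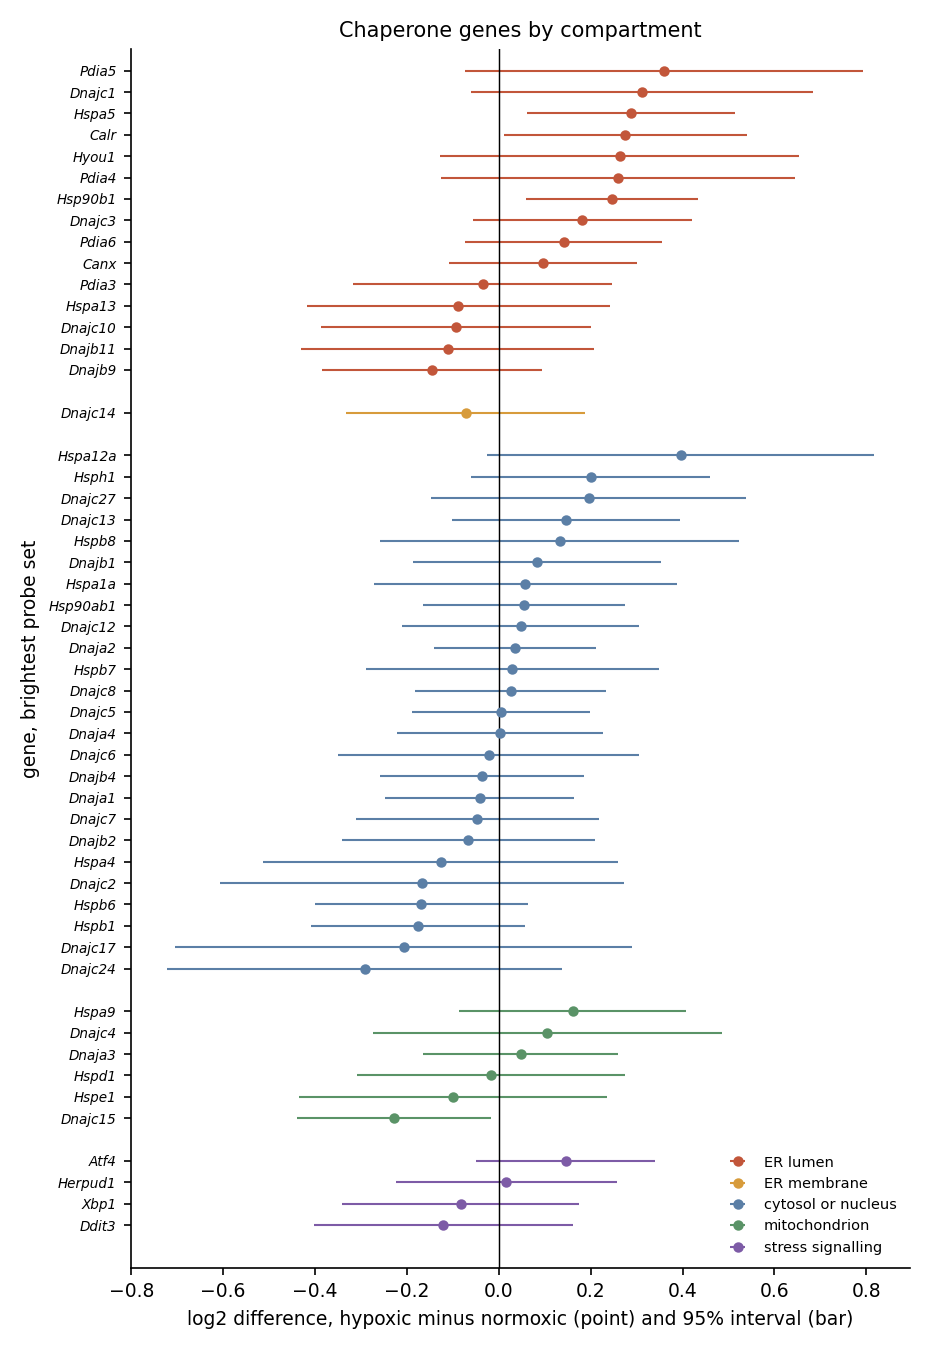
Log2 difference (hypoxic minus normoxic, x axis) of the 51 tested chaperone genes at their brightest probe set, grouped by compartment. Points are limma estimates and bars 95% intervals over 4 pools a group. The intervals of Hspa5, Hsp90b1 and Calr lie above 0, that of Dnajc15 lies below 0, and the 25 cytosolic genes straddle 0.

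Set side by side, the ER and cytosolic groups differed in their centre. Of 15 tested ER lumen genes, 10 were higher under hypoxia and 5 lower. Their median log2 difference was 0.18, with quartiles of -0.06 and 0.27. Of 25 cytosolic or nuclear genes, 14 were higher and 11 lower, with a median of 0.00 and quartiles of -0.07 and 0.06. Above 0 lay 45.2% of all tested probe sets. At an unadjusted p under 0.05 there were 3 of 15 ER lumen genes (20%), all higher, and 0 cytosolic genes. Of all tested probe sets, 4.16% had this in that direction and 8.64% in both. The 6 mitochondrial genes divided into 3 higher and 3 lower (median 0.02), and the 4 signalling genes into 2 and 2 (median -0.03). These medians describe genes that share pools, so no test was made of them.

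Each pool's mean over the ER lumen genes was taken on the log2 scale, relative to each gene's own mean over the 8 pools. It was -0.01, -0.06, -0.13 and -0.07 in normoxic pools 1 to 4 and 0.09, -0.03, 0.04 and 0.16 in hypoxic pools 1 to 4. Hypoxic pool 2 lay within the normoxic range, so the groups overlapped. For the cytosolic genes the means were -0.01, 0.06, -0.01 and -0.05 in normoxic and -0.01, 0.03, -0.05 and 0.03 in hypoxic pools, so the groups overlapped here as well. The ER mean minus the cytosolic mean was highest in hypoxic pools 4, 1 and 3, at 0.12, 0.11 and 0.09, while hypoxic pool 2 was at -0.06 between normoxic pools. In RNA from pooled glands without the capsule, a difference in the share of a cell type cannot be told apart from one in the RNA per cell. The 9 chromaffin markers also had differences above 0, from 0.04 for Chgb to 0.98 for Slc18a2, though their summed levels overlapped between groups. Their part in the ER lumen values was not tested.

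**Figure D2:**
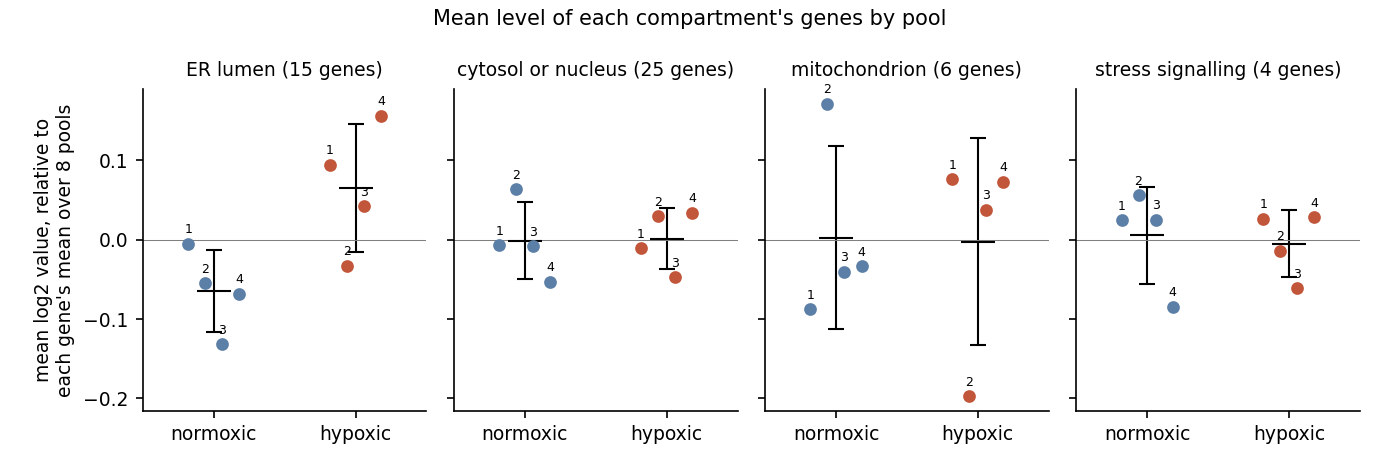
Mean log2 value of the tested genes of 4 compartments in each pool, relative to each gene's mean over 8 pools (y axis); numbers are pool numbers, bars the group mean and SD of 4 pools. Hypoxic pools 1, 3 and 4 stand above all normoxic pools for the ER lumen only, and hypoxic pool 2 is lowest for the mitochondrion.

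Hspa5 encodes BiP, the Hsp70 of the ER and the protein that holds the stress sensors inactive. Its intensity was 2653.9, 2558.4, 2508.0 and 2567.1 in normoxic pools 1 to 4, and 3371.5, 2794.9, 2810.5 and 3684.2 in hypoxic pools 1 to 4. The normoxic pools were tight and the hypoxic pools wide, with pools 1 and 4 well above pools 2 and 3 and no overlap. The log2 difference was 0.29 with a standard error of 0.10 and a 95% interval from 0.06 to 0.51 (limma, adjusted p = 0.436). The exact permutation test gave 0.0286, two-sided, the smallest p that 4 against 4 pools allow. Any gene without overlap gets this p, so it adds nothing to the lack of overlap. Groups did not overlap in 5.39% of all tested probe sets. With 1 pool left out the difference ran from 0.21 to 0.34.

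Hsp90b1 encodes GRP94, the Hsp90 of the ER lumen. It measured 2881.9, 2835.3, 2529.7 and 2538.8 in normoxic and 3178.1, 3050.8, 3179.8 and 3381.1 in hypoxic pools. All hypoxic pools lay above all normoxic pools here too, and they were close together. The log2 difference was 0.25 (interval 0.06 to 0.43, limma adjusted p = 0.419, exact permutation p = 0.0286, again fixed by the lack of overlap).

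Calreticulin (Calr) is a lectin chaperone and calcium store of the ER lumen. Its normoxic values were 2797.3, 2981.6, 3215.2 and 3031.3, and its hypoxic values 2994.6, 3537.6, 3583.9 and 4606.7. Hypoxic pool 1, high for Hspa5, was within the normoxic range for Calr, and pool 4 was highest for both. The log2 difference was 0.28 (interval 0.01 to 0.54, limma adjusted p = 0.550) and 0.16 without hypoxic pool 4. Its membrane-bound relative calnexin (Canx) differed by 0.10 at the brightest of 3 probe sets, with groups of 3008 ± 243 and 3213 ± 227 (SD, n = 4 each). The other Canx probe sets differed by -0.07 and -0.27, and the mean of the 3 by -0.08, so the sign of Canx depended on the probe set. At the brightest it was 0.04 without normoxic pool 3 and 0.06 without hypoxic pool 1.

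The exchange factor of BiP, Hyou1 (GRP170), measured 431.9, 427.0, 495.0 and 512.3 in normoxic and 369.5, 615.3, 583.4 and 745.6 in hypoxic pools. Hypoxic pool 1 was the lowest of all 8 pools and the other 3 hypoxic pools were the highest. The log2 difference was 0.26 (interval -0.13 to 0.65, limma adjusted p = 0.733) and 0.46 without hypoxic pool 1 or 0.13 without hypoxic pool 4, and a dimmer probe set gave 0.08. Thus hypoxic pool 1 was low for Hyou1 and Calr among hypoxic pools and high for Hspa5, Pdia6 and Dnajc3. Over the 15 ER lumen genes, hypoxic pool 1 held the highest value of the 8 pools in 6 and hypoxic pool 4 in 6, and normoxic pool 3 held the lowest in 6.

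**Figure D3:**
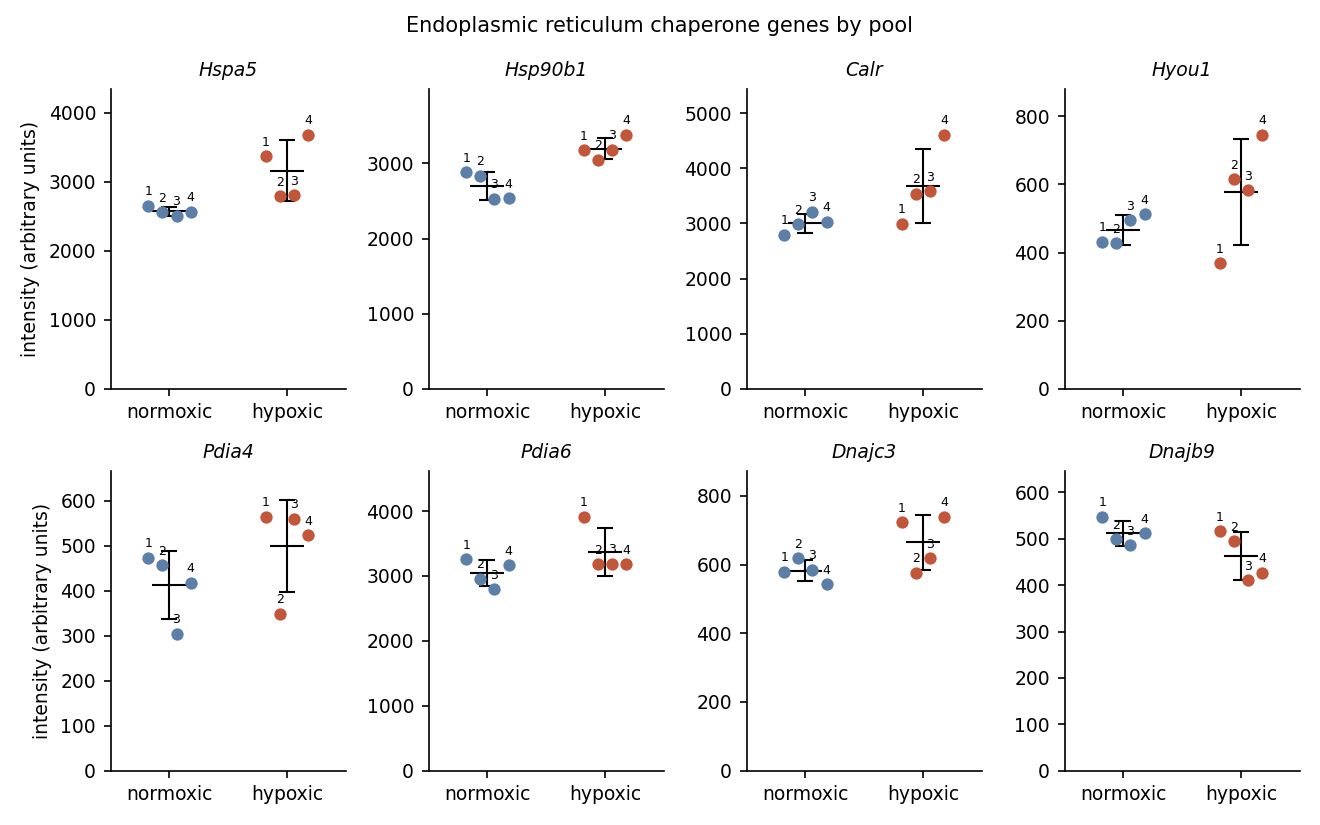
Deposited intensity (y axis, arbitrary units, from 0) of 8 ER lumen genes in 4 normoxic and 4 hypoxic pools; points are pools with their numbers, bars the mean and SD. Hspa5 and Hsp90b1 show no overlap between groups, Hyou1 and Calr overlap through hypoxic pool 1, and Dnajb9 is lower on average in hypoxic pools.

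Promoters are shown for Hspa5, Hsp90b1 and Calr, the ER lumen genes with an unadjusted limma p under 0.05. Each of them carries the element through which the unfolded protein response acts. Windows run from 250 bases before to 50 after the annotated start and come from RefSeq for assembly GRCr8. They were found for 51 of the 63 genes. The ER stress response element, searched on both strands as CCAAT and CCACG with 9 bases of any kind between them, stood in 22 of all 33469 windows (0.0657%). Among chaperone genes it stood in 6, of which 5 are ER lumen genes of 14 with a window (Calr, Canx, Dnajc3, Hsp90b1 and Hspa5) and the sixth is Xbp1. None of the 26 cytosolic genes with a window held it, and neither did Hyou1. The Hspa5 window (chr3:38452766-38453065, plus strand) has the element at position -43 from the start, the Hsp90b1 window (chr7:23012244-23012543, minus strand) has it 2 times, and the Calr window (chr19:40213117-40213416, plus strand) has it at -232. In the lines below it is in capitals, read 5′ to 3′, and where the capitals begin with CGTGG it lies on the opposite strand.
Hspa5: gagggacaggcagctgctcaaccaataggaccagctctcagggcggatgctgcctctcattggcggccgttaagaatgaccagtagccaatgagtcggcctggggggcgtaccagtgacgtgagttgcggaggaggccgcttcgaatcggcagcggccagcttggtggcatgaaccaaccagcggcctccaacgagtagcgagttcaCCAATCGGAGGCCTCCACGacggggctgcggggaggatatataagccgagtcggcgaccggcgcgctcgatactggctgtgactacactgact
Hsp90b1: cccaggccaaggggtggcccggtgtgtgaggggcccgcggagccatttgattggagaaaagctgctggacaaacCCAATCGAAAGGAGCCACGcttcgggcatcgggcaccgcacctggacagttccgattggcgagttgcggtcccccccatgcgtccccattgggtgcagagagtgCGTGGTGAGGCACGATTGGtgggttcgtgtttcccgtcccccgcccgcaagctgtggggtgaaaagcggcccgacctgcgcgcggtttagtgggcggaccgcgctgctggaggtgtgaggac
Calr: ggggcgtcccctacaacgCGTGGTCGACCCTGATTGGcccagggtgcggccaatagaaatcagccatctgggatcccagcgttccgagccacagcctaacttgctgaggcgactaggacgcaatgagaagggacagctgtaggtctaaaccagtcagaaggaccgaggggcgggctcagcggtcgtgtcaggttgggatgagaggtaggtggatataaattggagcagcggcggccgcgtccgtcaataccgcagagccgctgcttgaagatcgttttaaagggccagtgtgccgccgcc

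Of the 6 chaperone genes with the element, 5 were higher under hypoxia, where 45.2% of all tested probe sets lay above 0. Canx is among the 5 by its brightest probe set only. The median over the 6 was 0.21, and Xbp1 was at -0.08. ER lumen genes whose windows lacked the element lay on both sides of 0. Pdia5 was at 0.36, Dnajc1 at 0.31, Hyou1 at 0.26 and Pdia4 at 0.26. Dnajb9 was at -0.15, Dnajb11 at -0.11, Dnajc10 at -0.09 and Hspa13 at -0.09. Of 9 tested genes outside the group that carry the element, 2 were higher and the median was -0.08. Among them were Creld2, an ER stress gene, at 0.01, and Ero1b, an ER folding gene, at -0.22. Birc5 (survivin, a protein of dividing cells) was at -0.71 (limma adjusted p = 0.0509). The match of letters is a description and shows no binding.

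Protein disulfide isomerases form and shuffle disulfide bonds in the ER. Pdia5 measured 111.9, 122.0, 178.8 and 131.9 in normoxic and 119.7, 215.4, 204.9 and 182.6 in hypoxic pools, with overlap at hypoxic pool 1 and a log2 difference of 0.36 (interval -0.07 to 0.79, limma adjusted p = 0.662). Pdia4 (ERp72) went from 413 ± 76.0 to 499.6 ± 102, a difference of 0.26 (adjusted p = 0.733). That of Pdia4 was 0.13 without normoxic pool 3, 0.42 without hypoxic pool 2 and 0.12 with the Gapdh ratio as a covariate. Pdia6 went from 3043 ± 205 to 3365 ± 367, a difference of 0.14 that was 0.07 without hypoxic pool 1. Pdia3 (ERp57), the partner of calreticulin and calnexin, differed by -0.04 and by -0.08 at its other probe set, so 3 of the 4 tested members were higher and none passed the test.

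The J proteins of the ER lumen divided. Dnajc1, a membrane-anchored partner of BiP, measured 455.9, 412.9, 273.7 and 344.8 in normoxic and 577.1, 407.7, 385.7 and 480.9 in hypoxic pools, with a log2 difference of 0.31 (interval -0.06 to 0.68, limma adjusted p = 0.662). For Dnajc1 it was 0.18 without normoxic pool 3, 0.20 without hypoxic pool 1 and 0.20 with probe sets averaged. Dnajc3 (P58IPK) measured 581 ± 30.7 and 664 ± 79.6, a difference of 0.18 (adjusted p = 0.695). Differences below 0 were found for others of the class. They were Dnajb9 (ERdj4), an unfolded protein response target, at -0.15, Dnajb11 (ERdj3), at -0.11, and the reductase gene Dnajc10 (ERdj5), at -0.09. Hspa13, a divergent Hsp70 of the ER, was at -0.09. Dnajb9 had normoxic values of 548.1, 499.2, 486.8 and 512.0 and hypoxic values of 516.5, 495.4, 411.1 and 427.2, so its 2 lowest pools were hypoxic, and its difference was -0.09 without hypoxic pool 3.

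None of the signalling genes passed the test, and their differences lay from -0.12 to 0.15. Xbp1, a transcription factor of the unfolded protein response, measured 4400 ± 664 and 4124 ± 323, a log2 difference of -0.08 (interval -0.34 to 0.17, limma adjusted p = 0.890). The array reads the total Xbp1 transcript as far as the annotation says, and the spliced form was not analysed here. Atf4, translated when the integrated stress response is on, measured 2439.7, 2657.9, 2547.5 and 2703.0 in normoxic and 3231.1, 2800.6, 2748.3 and 2696.1 in hypoxic pools. Its groups overlapped only through hypoxic pool 4 and normoxic pool 4, and the difference was 0.15 (interval -0.05 to 0.34, limma adjusted p = 0.701), or 0.09 without hypoxic pool 1. Ddit3 (CHOP), a target of Atf4 in prolonged stress, differed by -0.12 and Herpud1, which serves ER-associated degradation, by 0.02.

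In the cytosol, no gene of the Hsp70 and Hsp90 systems passed the test, and differences lay on both sides of 0. Hsph1 (Hsp110), an exchange factor for Hsp70 and a heat shock factor target, measured 555.5, 511.5, 513.4 and 500.0 in normoxic and 487.3, 626.7, 702.9 and 600.8 in hypoxic pools. As with Hyou1, its relative in the ER, hypoxic pool 1 was the lowest of the 8 pools and the other 3 hypoxic pools were the highest. The log2 difference was 0.20 (interval -0.06 to 0.46, limma adjusted p = 0.689), or 0.30 without hypoxic pool 1 and 0.13 without hypoxic pool 3. Hspa4, of the same exchange factor family, differed by -0.13, with 845 ± 194 and 770.5 ± 169. Hsp90ab1, the constitutive cytosolic Hsp90, measured 9316 ± 465 and 9716 ± 1164, a difference of 0.05, with 0.16 at its second probe set.

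Hspa1a, the heat-inducible Hsp70, measured 1322.1, 1455.9, 1323.2 and 1198.3 in normoxic and 1446.7, 1690.2, 970.3 and 1512.1 in hypoxic pools. Hypoxic pool 3 was the lowest of all and hypoxic pool 2 the highest, and the log2 difference was 0.06 (interval -0.27 to 0.39). This gene has a near-identical copy, Hspa1b, so its probe set may read both. Hspa12a, a distant relative of Hsp70, measured 317.0, 271.6, 278.8 and 230.6 in normoxic and 289.4, 411.2, 275.4 and 532.3 in hypoxic pools. Its log2 difference of 0.40 (interval -0.03 to 0.82, limma adjusted p = 0.617) was the highest of the 51 with all pools in. It was 0.22 without hypoxic pool 4, below Pdia5 and Dnajc1 in that setting, and hypoxic pools 1 and 3 lay within the normoxic range.

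Small heat shock proteins hold unfolded clients without ATP. Hspb1 (Hsp27) measured 828.5, 909.6, 1079.3 and 1066.3 in normoxic and 896.6, 809.9, 872.3 and 835.3 in hypoxic pools, a log2 difference of -0.18 (interval -0.41 to 0.06, limma adjusted p = 0.699), or -0.09 with the Gapdh covariate. Hspb6 (Hsp20), abundant in muscle, measured 613 ± 53.2 and 543 ± 42.5, a difference of -0.17 (adjusted p = 0.709). Hspb7 differed by 0.03 and Hspb8, which works with Bag3, by 0.13. Smooth muscle markers, of which 4 of 5 were bright enough to test, summed to 751.7 to 1360.7 in normoxic and 901.3 to 1220.1 in hypoxic pools, with 2 higher and 2 lower. Of 8 skeletal and cardiac muscle markers on the array, 4 were bright enough to test (1 higher, 3 lower), and Myh3 was at background in all pools. Their sum, 3910.1 to 4870.4 in normoxic and 4214.7 to 4660.8 in hypoxic pools, was almost wholly Myh1, at 3251.0 to 4244.2 and 3453.3 to 4065.5. The next brightest, Tnni2 and Des, reached 208.2 and 205.8 at most, and Acta1 reached 118.2. The Myh1 signal was thus not matched by the other muscle genes, and the sum is not read as a muscle level. The part of muscle in the values of Hspb1 and Hspb6 was not tested.

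**Figure D4:**
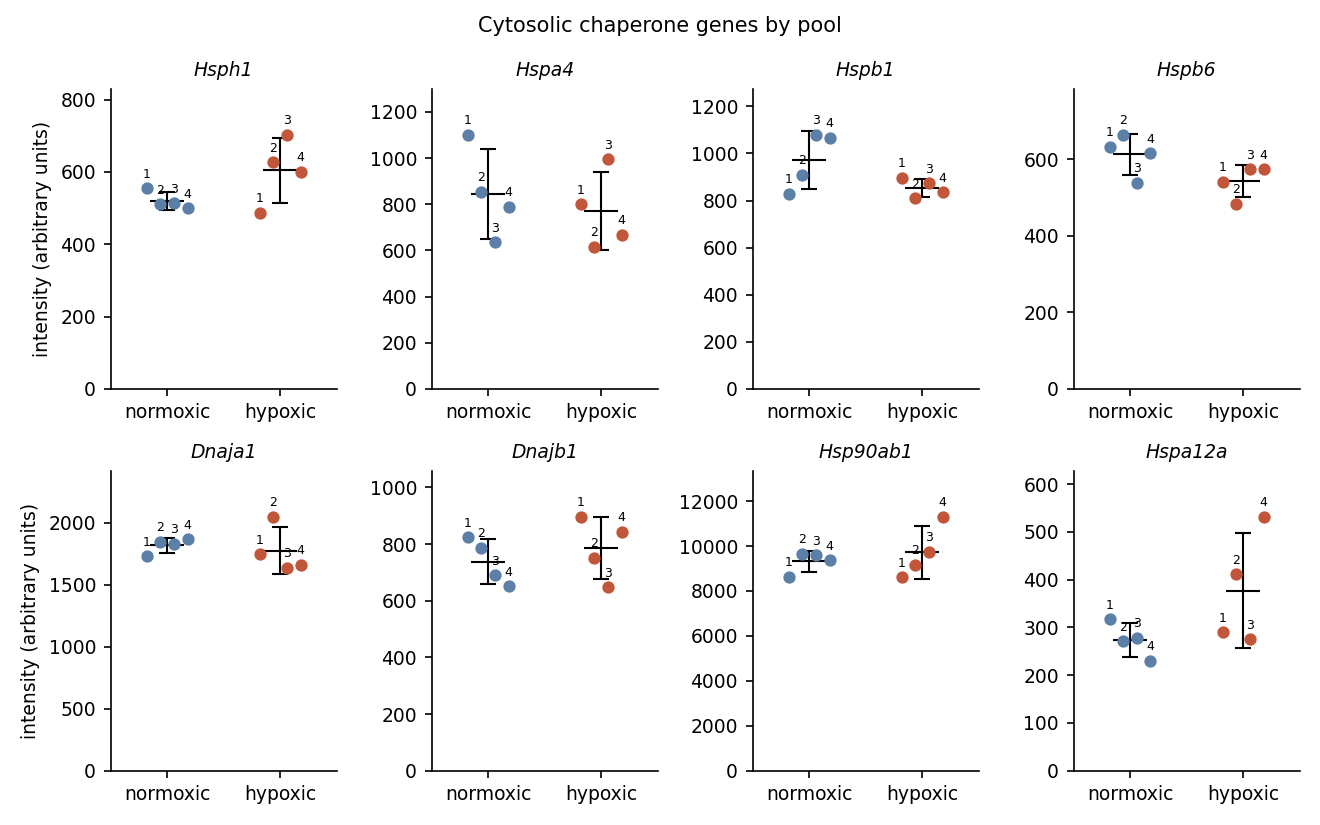
Deposited intensity (y axis, arbitrary units, from 0) of 8 cytosolic chaperone genes in 4 normoxic and 4 hypoxic pools; points are pools with their numbers, bars the mean and SD. Groups overlap in every panel, and Hsph1 has 3 hypoxic pools above all normoxic pools with hypoxic pool 1 below them.

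Cytosolic and nuclear J proteins were centred on 0: of 16 tested, 8 were higher and 8 lower, with a median log2 difference of -0.01. Dnaja1 and Dnajb1, the main partners of cytosolic Hsp70, differed by -0.04 (interval -0.25 to 0.16) and 0.08 (interval -0.19 to 0.35), and their second probe sets by -0.11 and -0.06. Dnaja2, of the same class, measured 2339 ± 85.1 and 2398 ± 98.2, a difference of 0.04 (interval -0.14 to 0.21). Dnajc12, a partner of the hydroxylases that start catecholamine and serotonin synthesis, measured 400.0 ± 26.4 and 416 ± 55.5, a difference of 0.05. Dnajc5, the cysteine string protein of secretory vesicles, measured 1337 ± 98.4 and 1339 ± 50.5, a difference of 0.00. Its dimmer probe set differed by -0.50 (interval -1.05 to 0.05), and that of Dnajc6 (auxilin, which uncoats clathrin vesicles) by -0.49 against -0.02 at the bright one. Wide intervals belonged to dim genes such as Dnajc24, needed to modify elongation factor 2 (-0.29, from -0.72 to 0.14), and Dnajc17 (-0.21, from -0.70 to 0.29).

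The heat shock element, searched as GAANNTTC or TTCNNGAA, which read the same on both strands, stood in 15.9% of all windows. It stood in 8 of 26 cytosolic genes with a window (Dnaja1, Dnajb1, Dnajc27, Hspa2, Hspb1, Hspb6, Hspb8 and Hsph1), in 3 of 5 mitochondrial genes (Hspa9, Hspd1 and Hspe1) and in 0 of 14 ER lumen genes. The Hsph1 window (chr12:10427118-10427417, plus strand, GRCr8) is shown because its gene had the highest log2 difference, 0.20, among cytosolic genes with the element (Dnajc27, at 0.20, was next), with its 3 matches in capitals, of which 2 overlap.
Hsph1: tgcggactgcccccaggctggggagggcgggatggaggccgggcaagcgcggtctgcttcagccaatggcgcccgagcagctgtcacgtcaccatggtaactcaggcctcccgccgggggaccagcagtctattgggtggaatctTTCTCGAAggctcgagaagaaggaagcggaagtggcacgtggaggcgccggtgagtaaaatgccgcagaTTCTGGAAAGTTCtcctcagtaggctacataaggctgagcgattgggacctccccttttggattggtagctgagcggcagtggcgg

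Of the 10 tested genes with a heat shock element, 5 were higher under hypoxia and 5 lower, and the median was 0.03. By compartment, the 7 cytosolic ones had a median of 0.08 and the 3 mitochondrial ones -0.02. The windows of the heat-inducible Hspa1a and of Hsp90ab1 held no match, so the search does not pick out every heat-inducible gene.

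In mitochondria, Hspd1 (Hsp60) and Hspe1 (Hsp10) form the folding chamber of the matrix. Hspd1 measured 16271.8, 21313.0, 21248.1 and 18609.2 in normoxic and 19465.3, 15229.3, 22835.5 and 19328.5 in hypoxic pools, a log2 difference of -0.02 (interval -0.31 to 0.28, limma adjusted p = 0.988). Hspe1 measured 15575.0, 21539.8, 20978.3 and 18635.2 in normoxic and 17434.2, 13332.5, 21502.9 and 19895.6 in hypoxic pools, a difference of -0.10 (interval -0.43 to 0.23). Both genes were lowest in hypoxic pool 2 and next lowest in normoxic pool 1, so most of the spread lay within the groups. The same 2 pools were the lowest for 6 of 8 cortex markers (Cyp11a1, Cyp11b1, Cyp21a1, Fdx1, Hsd3b1 and Star), so this was not particular to the pair. They were the lowest for 1 of 9 chromaffin markers and 6 of 88 other folding and stress signalling genes. Of the 51 chaperone genes 5 had them lowest: Dnaja2, Hspb1, Xbp1 and the pair itself. Over the 8 pools Pearson's r of the log2 values of Hspd1 and Hspe1 was 0.953 (exact permutation p = 0.000471) and Spearman's rho 0.905 (exact p = 0.00456). This relation, the only one computed, was chosen after the values were seen. Without those 2 pools r was 0.802 (n = 6, exact permutation p = 0.0569), so its passing of 0.05 rests on them. The part of the cortex markers in this relation was not tested.

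**Figure D5:**
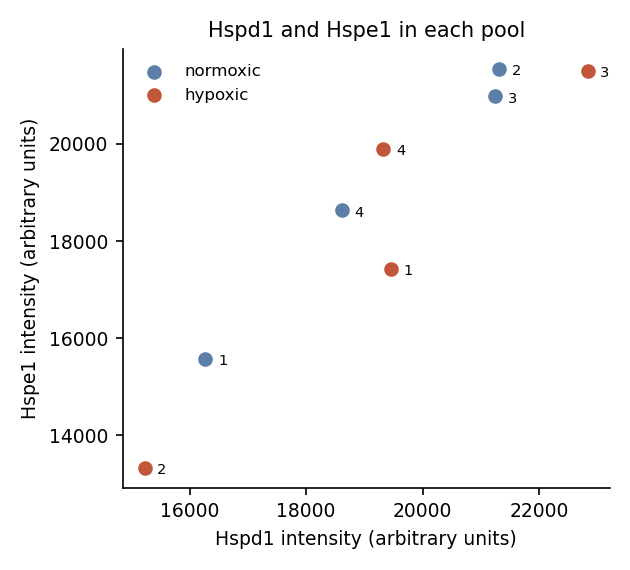
Intensity of Hspe1 (y axis) against Hspd1 (x axis) in each pool, arbitrary units, with pool numbers; axes do not start at 0. Normoxic and hypoxic pools are mixed along the diagonal, with hypoxic pool 2 and normoxic pool 1 at the low end.

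Hspd1 and Hspe1 are transcribed away from each other, with annotated starts 290 bases apart, so that their windows share 211 bases. The Hspe1 window (chr9:64084077-64084376, plus strand, GRCr8) is shown because it covers most of the stretch between them, with a run of 3 overlapping heat shock elements in capitals that lies in the Hspd1 window too.
Hspe1: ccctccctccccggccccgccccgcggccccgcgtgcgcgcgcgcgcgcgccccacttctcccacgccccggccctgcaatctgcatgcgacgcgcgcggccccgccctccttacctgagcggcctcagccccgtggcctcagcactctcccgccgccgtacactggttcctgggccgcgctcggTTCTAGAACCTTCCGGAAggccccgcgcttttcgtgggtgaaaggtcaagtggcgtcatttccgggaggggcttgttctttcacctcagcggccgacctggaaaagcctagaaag

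Among the other mitochondrial chaperone genes, Dnajc15 (MCJ), a J protein of the inner membrane, measured 4762.0, 5977.5, 5553.3 and 5213.7 in normoxic and 4777.5, 4273.9, 4350.4 and 4922.7 in hypoxic pools. Normoxic pool 1 was as low as the hypoxic pools, so the groups overlapped. The log2 difference was -0.23 (interval -0.44 to -0.02, limma adjusted p = 0.541, exact permutation p = 0.0857). Hspa9 (mortalin), the Hsp70 of the matrix, had differences of 0.16, 0.20 and 0.13 at its 3 probe sets, and at the brightest the value was 0.08 without normoxic pool 3 and 0.08 without hypoxic pool 4. Dnaja3, its J partner, differed by 0.05 and Dnajc4 by 0.11.

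Other genes of folding and stress signalling were listed by function, outside the naming rule. Of 88 tested genes, 0 passed limma at an adjusted p of 0.05. An unadjusted limma p under 0.05 was found for 5 (5.68%), all higher and 0 of them in the ER folding part. Of all tested probe sets, 4.16% had this in that direction and 8.64% in both. The median log2 difference was 0.01. By part, 16 of 34 cytosolic co-chaperone and heat shock factor genes were higher (median -0.01), 23 of 36 genes of ER folding and quality control (median 0.03), 4 of 5 mitochondrial genes (median 0.19) and 6 of 13 signalling genes (median -0.04). P4hb, the founding disulfide isomerase, differed by 0.05, Sdf2l1 by 0.07 and Manf by -0.03.

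Of the 4 with the lowest p, Asns and Wfs1 were listed under unfolded protein response signalling, Lonp1 with the mitochondrial genes and Stip1 with the cytosolic co-chaperones. Asns, asparagine synthetase and a target of Atf4, measured 381 ± 47.5 and 477 ± 33.3 with no overlap, a log2 difference of 0.32 (limma adjusted p = 0.471). Wfs1, an ER membrane protein of secretory cells, measured 463 ± 26.1 and 558 ± 40.2 with no overlap, a difference of 0.26 (adjusted p = 0.495). Lonp1, the matrix protease, measured 2940 ± 246 and 3870 ± 832, a difference of 0.37 (adjusted p = 0.479) that was 0.18 with its probe sets averaged and 0.25 without hypoxic pool 4. Stip1, which joins Hsp70 to Hsp90, measured 1142 ± 105 and 1387 ± 163, a difference of 0.27 (adjusted p = 0.503). Of other Atf4 and unfolded protein response genes, Chac1 was at -0.12 and Eif2ak3, which encodes the sensor PERK, at -0.04.

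The remaining 12 genes were too dim to test, 10 of them cytosolic: Dnajb3, Dnajb5, Dnajb13, Dnajc21, Dnajc22, Hspa2, Hspa1l, Hspa12b, Hspb2 and Hspb3. The others were Pdia2 in the ER lumen and Dnajb12 in its membrane. Hspb3, a small heat shock protein of muscle, measured 30.4, 14.7, 34.2 and 62.0 in normoxic and 8.2, 10.0, 13.4 and 9.0 in hypoxic pools. All hypoxic values were below all normoxic ones, and 7 of 8 were under the 95th percentile of the bacterial controls, so no fold is given. Dnajc14, the only tested gene of the ER membrane group, differed by -0.07 and -0.12 at its probe sets. Of the 12 genes with several tested probe sets, the sign differed between them for 3, Canx, Dnajb1 and Dnajc5.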

How the data were processed

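The authors' deposited table holds 1 probe set intensity per pool on a linear scale. Which software summarised the probes is not known here. Array means, trimmed by 2% at each end, all equalled 500.1, so the deposited intensities had been scaled to a common mean, which hides any shift common to most transcripts. Gene names are the platform annotation's: 12783 of 15866 probe sets without controls have 1 symbol, 312 several and 2771 none. The log2 of each value (at least 1) plus an offset of 16 was used, which understates changes of dim genes. No normalization was added, since array medians lay within 0.117 of each other (limit 0.2). Probe sets under the 30th percentile of mean log2 value (a signal of 95.2) were dropped, leaving 11106. Groups were compared with limma 3.58.1 (variance trend, R 4.3.3). Tests were two-sided, and p-values were adjusted by Benjamini and Hochberg's method across the 11106.

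Differences are on this scale, intervals are limma's 95% intervals, and means and SDs are of deposited intensities. In simulated data for this comparison on 11106 probe sets, 37% of changes of 0.6 log2 and 85% of changes of 1 log2 were recovered. Each size was given to 100 probe sets. Changes as small as those of the chaperone genes, 0.40 at most, were not simulated, so recovery at that size is not known. The members, compartments and lists were chosen with earlier results of these data known. Genes named are the 10 members with the lowest p, a panel of 27 (24 measured), the 4 of the pathway list with the lowest p, and their other probe sets. Further members were named by role after their values were seen. Alternatives were another offset, no filter, no trend, quantile or median scaling, averaged probe sets, the Gapdh ratio as a covariate, a replicate block and single pools left out. Tables and plots used Python 3.11.15.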

Additional observations from a re-analysis of the deposited data

Results flagged for a closer look

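In 4 of 70 groups of 4 pools examined for the named genes and compartment means, 1 pool lay far from the other 3 by Dixon's criterion, which chance meets in about 1 group in 20. Pdia6 in hypoxic pool 1 was 3915.3, against 3176.7 to 3190.4 in the others. Hspa9 in normoxic pool 3 was 2466.1, against 3058.6 to 3135.8. Ddit3 in hypoxic pool 2 was 287.7, against 246.1 to 251.9, and its log2 difference of -0.12 was -0.17 without that pool (limma adjusted p = 0.819). The mean over the 6 mitochondrial genes in hypoxic pool 2 was -0.197 relative to the genes' own means, against 0.0378 to 0.0762 in the other hypoxic pools.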

How the results depend on the processing

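The number of chaperone genes past an adjusted p of 0.05 was 0 in all 16 alternatives, and so was that of the pathway list. The number with an unadjusted p under 0.05 was 2 with the Gapdh ratio as a covariate, 2 with no variance trend, and 1 to 8 with single pools left out. Over all probe sets the 20 calls became 0 with the Gapdh covariate, 0 with no brightness filter and 0 with no variance trend, and 0 to 31 with single pools left out (31 without hypoxic pool 1, 2 without hypoxic pool 4, 1 without normoxic pool 4, 0 otherwise). The median log2 difference of the ER lumen genes stayed above 0 in every alternative, from 0.13 to 0.22, and was 0.16 with the ER membrane gene added. That of the cytosolic genes ran from -0.03 to 0.04 and that of the mitochondrial genes from -0.04 to 0.08. Of 32 named genes, 25 kept their direction throughout. Herpud1 was at -0.029 with the Gapdh covariate, Pdia3 at 0.0013 and Hspd1 at 0.0196 with median centring, and Canx at -0.0821 with probe sets averaged. Leaving out single pools gave -0.0662 to 0.0914 for Herpud1, -0.101 to 0.0898 for Pdia3, -0.105 to 0.0899 for Hspd1, -0.196 to 0.038 for Hspe1, -0.256 to 0.0078 for Hspa4 and -0.0212 to 0.11 for Hsp90ab1. With the replicate number as a block, 18 probe sets and 0 chaperone genes passed, and 5 chaperone genes had an unadjusted p under 0.05. Deviations of same-numbered pools had correlations from -0.043 to 0.323, and those of differently numbered pools from -0.311 to 0.163. The highest, 0.323 and 0.186, were those of same-numbered pools 1 and 3, so the check does not settle whether numbers mark pairs. They were not taken as pairs in the main fit. Signals near background limit the dim genes, and 4 pools a group limit all.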
